A study of Mus musculus with 6 samples.

Results

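The 10 genes described here encode proteins that start or hold back the cell cycle in G1, the phase before DNA replication. They are 3 D-type cyclins (Ccnd1, Ccnd2, Ccnd3), 2 E-type cyclins (Ccne1, Ccne2), 2 kinases that D-type cyclins switch on (Cdk4, Cdk6) and 3 inhibitors of cyclin-dependent kinases (Cdkn1a, Cdkn1b, Cdkn2c). They were picked by gene name, with earlier results of these data known, and all 10 were found among the 24411 genes listed. RNA was sequenced from macrophages grown from monocytes, which came from the bone marrow of the inbred mouse strain C57BL/6. A flow cytometry sort had divided the monocytes into a population labelled LFA1-lo Itgam-lo and a population labelled LFA1-hi Itgam-hi, where LFA1 and Itgam are adhesion receptors of leukocytes. Each was cultured for 7 days with 10% serum and 20 ng/ml M-CSF (macrophage colony-stimulating factor), on which macrophages depend for survival and growth, with fresh medium on day 4. No genotype or drug treatment separates the groups, and the sources used here do not give the age of the mice. The series holds 3 libraries per group, called LFA1-lo and LFA1-hi macrophages after the sort that preceded the culture.

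Mitogens such as M-CSF raise D-type cyclins, which bind Cdk4 or Cdk6 and begin to phosphorylate the retinoblastoma protein. Phosphorylation frees the E2F transcription factors, which then raise the E-type cyclins, the partners of Cdk2 that complete this phosphorylation and fire replication. INK4 inhibitors such as p18 (Cdkn2c) bind Cdk4 and Cdk6 alone, while the Cip/Kip inhibitors p21 (Cdkn1a) and p27 (Cdkn1b) block cyclin and Cdk2 complexes and also take part in assembling cyclin D with its kinase. Macrophages in culture divide in response to M-CSF, and cyclin D1 is a known M-CSF response gene in them.

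Summed expected counts per library lay between 15191262 and 17614509, and 11692 genes had enough counts to be tested, all 10 members among them. Correlations of log2 CPM (counts scaled to library size) ran from 0.969 to 0.979 between LFA1-lo libraries, from 0.984 to 0.988 between LFA1-hi libraries and from 0.934 to 0.952 between the groups. The lowest values within LFA1-lo were those of LFA1-lo replicate 2. The labels do not say whether libraries of a group came from separate mice or cultures, and p-values therefore describe the spread among these 6 libraries alone, which may be technical. Of 8 macrophage markers none was below 1 TPM in all libraries. TPM is a level divided by transcript length and scaled to the same total in each library. At an adjusted p under 0.05, 5 of the 8 were lower in LFA1-hi and 1 was higher, beside 15.6% and 16.1% of all tested genes. Among the lower ones was Csf1r, the gene of the M-CSF receptor, with a mean of 1380 TPM in LFA1-lo and 666 TPM in LFA1-hi libraries (log2 −1.02, edgeR adjusted p = 0.000155). All 6 dendritic cell, 6 lymphocyte, 4 mast cell and 5 stromal markers were below 1 TPM in every library, as were 4 of 5 erythroid and megakaryocyte markers. The other one, Pf4, which macrophages can also express, was at 1046 to 1466 TPM in LFA1-lo and at 1230 to 1430 TPM in LFA1-hi libraries and did not pass. Progenitor markers had a summed level of 7.19 to 9.73 TPM in LFA1-lo libraries, and of 4.44 to 6.06 TPM in those of LFA1-hi. Of these 4 markers 2 fell, Kit and Meis1, where 15.6% of all tested genes did. Kit (log2 −2.88, edgeR adjusted p = 0.0284, up to 0.125 over alternatives) was below 0.5 TPM throughout. Meis1 had a log2 fold change of −1.55 (edgeR adjusted p = 0.0299, up to 0.113 over alternatives). Cd34 and Gata2 did not pass. Neutrophil markers, 7 of 8 listed, had a summed level of 52.1 to 176 TPM in LFA1-lo libraries, and of 23.0 to 34.0 TPM in those of LFA1-hi. Of the 3 that could be tested 2 fell, where 15.6% of all tested genes did. They were S100a9 (log2 −4.08, edgeR adjusted p = 0.00117) and Ngp (log2 −4.19, edgeR adjusted p = 0.00485, up to 0.0571 over alternatives). The part of Csf1r and of progenitor and neutrophil markers in the results below was not tested. In bulk RNA, fewer cells that express a gene and less of its RNA per cell cannot be told apart.

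Both E-type cyclins, the D-type cyclins Ccnd1 and Ccnd2, Cdk4, and the inhibitors Cdkn1a and Cdkn2c were higher in LFA1-hi macrophages, and the inhibitor Cdkn1b was lower. Thus 7 of 10 members rose and 1 fell at an adjusted p under 0.05, where 31.7% of all tested genes passed, 16.1% rising and 15.6% falling. Ccnd3 and Cdk6 did not pass. Values of the groups did not overlap for 9 of 10 members, Cdk6 being the exception, against 47.2% of tested genes (23.7% higher and 23.5% lower in LFA1-hi). The median log2 fold change (LFA1-hi minus LFA1-lo) was 0.96 over the members and −0.00465 over all tested genes.

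**Figure D1:**
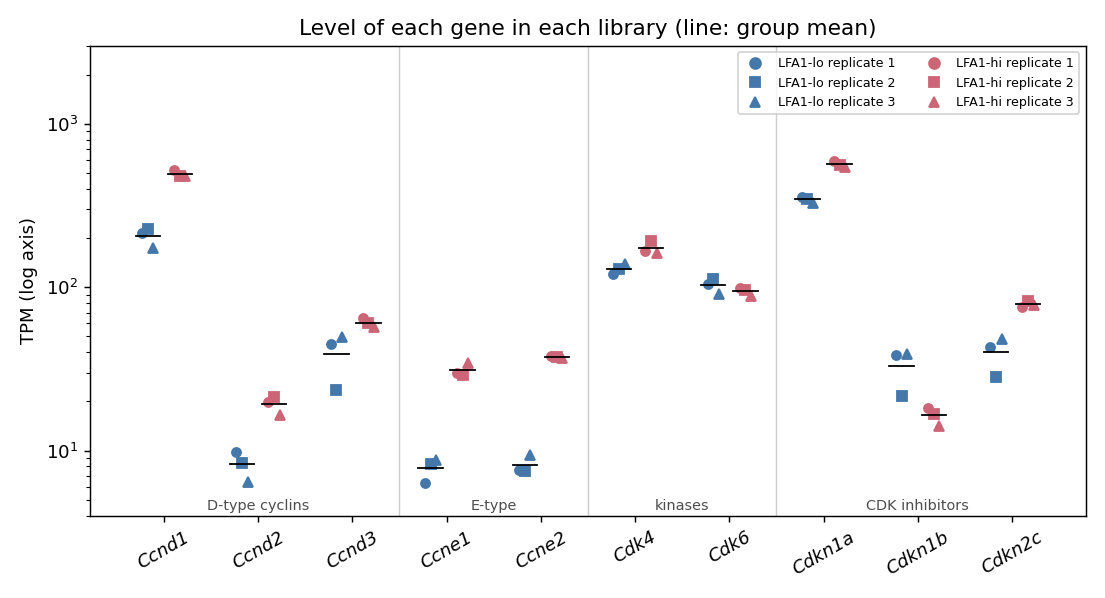
TPM of each gene in each of the 6 libraries on a log axis, with black lines at group means and symbols for the replicate number of the labels. The E-type cyclins stand below 10 TPM in every LFA1-lo library and above 28 TPM in every LFA1-hi library, and only Cdkn1b is lower in all LFA1-hi libraries.

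The D-type cyclins differed more in level than in response. Ccnd1, which encodes cyclin D1 (chromosome 7, 144929931 to 144939831, build GRCm38), was at 215, 226 and 174 TPM in LFA1-lo replicates 1, 2 and 3 and at 519.98, 478 and 478 TPM in LFA1-hi replicates 1, 2 and 3. The lowest LFA1-hi value lay well above the highest LFA1-lo value. The fold change was 2.43 (95% interval 2.04 to 2.90), or 1.28 on the log2 scale (SE 0.11, edgeR adjusted p = 7.95e-05). With its mean level among the highest 3.52% of tested genes, Ccnd1 made up 81.1% ± 6.05 of D-type cyclin TPM in LFA1-lo and 86.0% ± 0.589 in LFA1-hi (mean ± SD, n = 3).

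Ccnd2, encoding cyclin D2 (chromosome 6, 127125162 to 127152188), was the least abundant D-type cyclin. It stood at 9.81, 8.45 and 6.40 TPM in the LFA1-lo and 19.9, 21.2 and 16.6 TPM in the LFA1-hi libraries. Each LFA1-hi library exceeded each LFA1-lo library, and the fold change of 2.37 (1.86 to 3.03; log2 1.25, SE 0.16, edgeR adjusted p = 0.000494) was close to that of Ccnd1. The ratio of Ccnd1 to Ccnd2 TPM was 25.3 ± 2.94 in LFA1-lo and 25.8 ± 3.14 in LFA1-hi (n = 3 each), a log2 difference of 0.03 (exact permutation p = 0.8, two-sided, adjusted p = 0.8 over the 7 pairs compared). Its sign turned when LFA1-lo replicate 1 (−0.07) or LFA1-hi replicate 3 (−0.05) was left out.

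Ccnd3, encoding cyclin D3 (chromosome 17, 47505051 to 47599689), had 44.7, 23.4 and 49.4 TPM in LFA1-lo and 64.7, 60.1 and 57.1 TPM in LFA1-hi libraries. The groups did not overlap, but LFA1-lo replicate 2 lay far below the other LFA1-lo values. The log2 fold change was 0.66 (SE 0.23, 95% interval 0.12 to 1.19), and it did not pass in edgeR (adjusted p = 0.0639, range over alternatives 0.00317 to 0.16). Leaving out LFA1-lo replicate 2 (0.41, adjusted p = 0.00317) or LFA1-lo replicate 3 (0.86, adjusted p = 0.0322) made it pass, as did DESeq2 (0.65, adjusted p = 0.0148). Ratios of Ccnd1 or Ccnd2 to Ccnd3 overlapped between the groups. By annotated gene spans, the counting of Ccnd3 is uncertain over 7217 bases that it shares with the noncoding gene Gm41590, for which the files have no row matched by name, and over 359 bases shared with Bysl, that of Ccnd1 over 818 bases shared with Oraov1, and that of Ccnd2 over 2800 bases shared with a noncoding gene, since the sources used here do not give the use of the read strand.

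The E-type cyclins showed the largest fold changes of the 10 genes. Ccne1, encoding cyclin E1 (chromosome 7, 38097984 to 38107490), was at 6.30, 8.29 and 8.78 TPM in LFA1-lo and 29.7, 28.9 and 34.3 TPM in LFA1-hi libraries. Ccne2, encoding cyclin E2 (chromosome 4, 11190433 to 11204779), was at 7.63, 7.49 and 9.37 TPM in LFA1-lo and 37.7, 37.6 and 36.98 TPM in LFA1-hi libraries. Ranges of the 2 genes overlapped in LFA1-lo, while Ccne2 stood above Ccne1 in every LFA1-hi library. The lowest LFA1-hi library held over 3 times the TPM of the highest LFA1-lo library for each. Their fold changes were 4.03 (3.11 to 5.21; log2 2.01, SE 0.17, edgeR adjusted p = 5.39e-05) for Ccne1 and 4.65 (3.89 to 5.56; log2 2.22, SE 0.11, adjusted p = 9.81e-06) for Ccne2. The ratio of Ccne2 to Ccne1 was 1.06 ± 0.154 in LFA1-lo and 1.22 ± 0.120 in LFA1-hi (n = 3 each), which overlapped (exact permutation p = 0.2, adjusted p = 0.35). Ccne2 shares 5622 bases with Ints8, which stood at 13.7 TPM in LFA1-lo and 13.2 TPM in LFA1-hi.

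The kinases were the class that moved least. Cdk4 (chromosome 10, 127063535 to 127067288), at 120, 130 and 139 TPM in LFA1-lo and 166, 191 and 163 TPM in LFA1-hi libraries, rose by 1.35-fold (1.17 to 1.56; log2 0.43, SE 0.09, edgeR adjusted p = 0.00685). The groups did not overlap. Cdk6 (chromosome 5, 3341004 to 3531008) was at 105, 113 and 91.0 TPM in LFA1-lo and 99.1, 96.7 and 88.9 TPM in LFA1-hi libraries, so that the groups overlapped. Its fold change was 0.934, with a 95% interval of 0.796 to 1.10 (log2 −0.10, SE 0.10, edgeR adjusted p = 0.502). The interval leaves room for a change of either sign, but not for the 1.35-fold rise of Cdk4.

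Within each library, Cdk6 TPM per Cdk4 TPM was 0.872, 0.871 and 0.653 in LFA1-lo and 0.599, 0.506 and 0.545 in LFA1-hi. The ratio was lower in every LFA1-hi library, by 0.53 on the log2 scale. Its exact permutation p of 0.1 (n = 3 each, two-sided, adjusted p = 0.233) is the smallest that 3 against 3 libraries can give. The transcript model behind Cdk6 in the files has 2470 bases, against 11525 for the matching GENCODE transcript, and that of Cdk4 has 1346 against 2053. Reads outside the files' models were not analysed here, and whether such reads differ between the groups was not tested. Cdk6 also shares 19218 and 2556 bases with the noncoding genes Gm29868 and Gm36470.

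**Figure D2:**
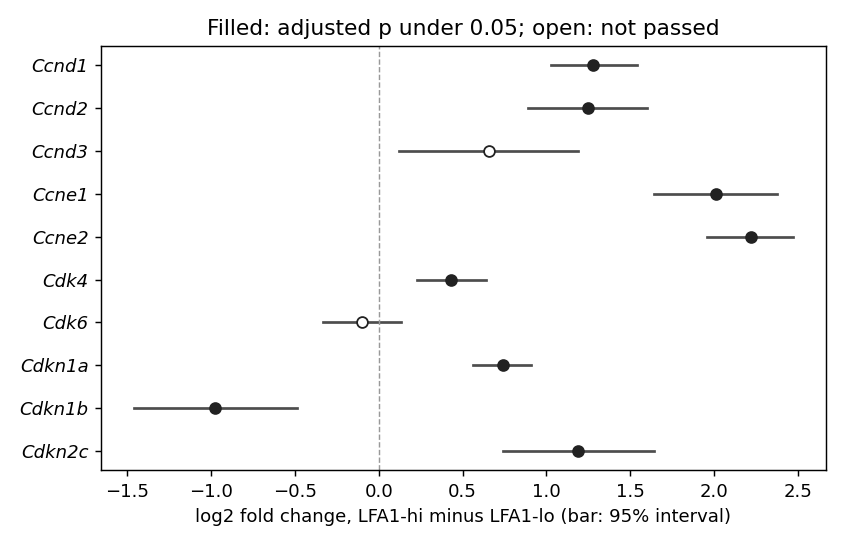
Log2 fold change (LFA1-hi minus LFA1-lo) of each gene with its 95% interval from the edgeR fit, filled where the adjusted p was under 0.05. E-type cyclins lie at 2.01 and 2.22, Ccnd1, Ccnd2 and Cdkn2c between 1.19 and 1.28, and Cdkn1b at −0.98.

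The 3 inhibitors moved in different directions. Cdkn1a (chromosome 17, 29090979 to 29100722), the p21 gene and a classic target of p53, was the most abundant of all 10 genes in both groups. It was at 358, 348 and 327 TPM in LFA1-lo and 595, 556 and 546 TPM in LFA1-hi libraries. No LFA1-hi library fell near the LFA1-lo range, and the rise was 1.67-fold (1.48 to 1.89; log2 0.74, SE 0.08, edgeR adjusted p = 0.000189). Cdkn1a held 82.6% ± 4.42 of the TPM of the 3 inhibitors in LFA1-lo and 85.6% ± 0.760 in LFA1-hi (mean ± SD, n = 3).

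Cdkn1b (chromosome 6, 134920401 to 134925525), the p27 gene, whose product accumulates in resting cells, was the member that fell. Its values were 38.3, 21.5 and 39.1 TPM in LFA1-lo and 18.3, 16.9 and 14.2 TPM in LFA1-hi libraries. LFA1-lo replicate 2 lay closer to the LFA1-hi range than to the other LFA1-lo libraries, yet above all LFA1-hi libraries. The LFA1-hi level was 0.508 of the LFA1-lo level (95% interval 0.363 to 0.711; log2 −0.98, SE 0.21, edgeR adjusted p = 0.00907), and without LFA1-lo replicate 2 the log2 fold change was −1.19. The call held in each of 17 alternatives, with adjusted p up to 0.0436.

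Cdkn2c (chromosome 4, 109660876 to 109666756), the p18 gene, was at 43.3, 28.1 and 48.1 TPM in LFA1-lo and 76.1, 82.9 and 77.3 TPM in LFA1-hi libraries. LFA1-lo replicate 2 was again the lowest, and the groups did not overlap. By counts the rise was 2.28-fold (1.67 to 3.11; log2 1.19, SE 0.20, edgeR adjusted p = 0.00279), and without LFA1-lo replicate 2 the log2 fold change was 0.97. On log2(TPM + 0.1), where the length of the gene's transcripts enters, it was 1.02 (limma adjusted p = 0.00544).

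The balance among the inhibitors thus shifted. Per Cdkn1b molecule there were 9.34, 16.2 and 8.37 Cdkn1a molecules in LFA1-lo and 32.5, 33.0 and 38.5 in LFA1-hi libraries by TPM. For Cdkn2c the ratios to Cdkn1b were 1.13, 1.31 and 1.23 against 4.16, 4.92 and 5.46. The latter was even across LFA1-lo libraries although both genes were low in LFA1-lo replicate 2. Log2 differences were 1.68 and 1.98, each with the smallest exact permutation p possible, 0.1 (n = 3 per group, adjusted p = 0.233). Cdkn1b went from 7.85% ± 2.15 to 2.48% ± 0.229 of inhibitor TPM.

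Cdkn2c also differed in which of its transcripts were counted. The files list 2 transcripts for it, which GENCODE places at separate start sites with the same coding segments. The long one begins with an exon upstream (109665610 to 109667189 in GENCODE), and the short one starts at 109665372, in the intron of the long one, with a first exon that runs to 109665018. RefSeq begins the long transcript 433 bases further downstream, at 109666756, which makes it 2038 rather than 2471 bases long, while the short one has 1106 bases. The mean transcript length that the files report for a gene, weighted by transcript abundance, was 1689, 1555 and 1717 bases in LFA1-lo and 1846, 1887 and 1851 bases in LFA1-hi libraries. Every LFA1-hi library was longer, by 207 bases on average. Of 3583 tested genes with several transcripts, mean lengths of the groups did not overlap for 382 (10.7%), and for 38 (1.06%) they also differed by at least as much as for Cdkn2c.

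A longer mean length means a larger share of the long transcript. With the RefSeq length the long transcript made up 62.6%, 48.2% and 65.5% of Cdkn2c molecules in LFA1-lo and 79.4%, 83.8% and 80% in LFA1-hi libraries. Its estimated level was 27.1, 13.6 and 31.5 TPM against 60.4, 69.4 and 61.9 TPM, a ratio of means of 2.65. The short transcript was then at 16.2, 14.6 and 16.6 TPM in LFA1-lo and 15.7, 13.5 and 15.5 TPM in LFA1-hi, and the groups overlapped. The ratio for the long transcript does not depend on the length assumed for it, which cancels. That ratio does depend on the 1106 bases taken for the short transcript, which were not varied. With the GENCODE length the ratio of means of the short transcript was 1.5 rather than 0.943 (23.4 ± 4.05 to 35.2 ± 0.313 TPM, n = 3). The sources used here do not give the transcript lengths the authors used, so whether the short transcript differs between the groups depends on this choice.

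**Figure D3:**
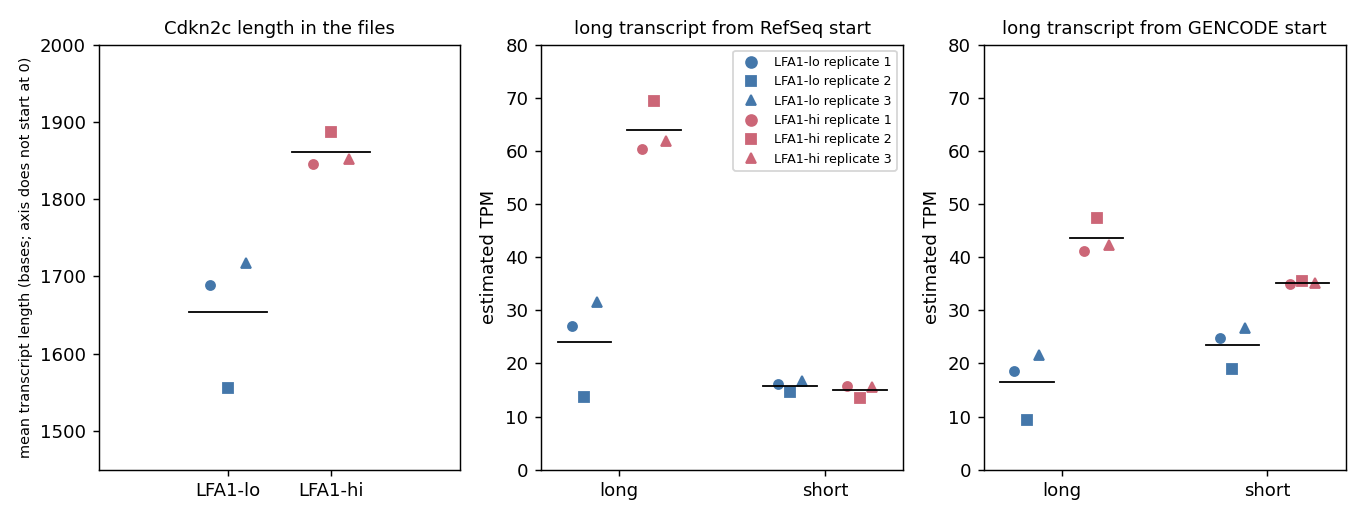
Left, mean Cdkn2c transcript length per library in bases, on an axis that does not start at 0. Middle and right, TPM of the long and short transcripts estimated from it with the long transcript begun at the RefSeq or the GENCODE start, with the symbols of each library and group means as lines. The long transcript has the same ratio between groups in both panels by construction, and the short one is higher in all LFA1-hi libraries only with the GENCODE start.

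Sequence before the start sites was in hand for 7 of the 10 genes (RefSeq, GRCm38.p6, the 250 bases before each start) and was searched on both strands for E2F words, namely the word TTCCCGC, the word TTGGCGC, the word TTCGCGC and the word TTGCCGC, since E2F factors link the retinoblastoma protein to S phase genes. Of the 10 windows of these genes 1 held a match, that of the long Cdkn2c transcript, and 7.89% of all 32851 such windows did. None of the 10 held the cell cycle word TTTGAA, found in 16% of all windows. A match is a run of letters and no evidence of binding, and its lack says only that these letters are not in the window. The stretches that follow are written 5′ to 3′ on the gene's strand with the E2F word in capitals. They are for the cyclin that rose most among genes with a window, for the inhibitor that fell and for both starts of Cdkn2c, with annotated exon bases left out apart from the 30 bases round the match. In GENCODE that match lies inside the first exon of the long transcript, 19 to 25 bases before the RefSeq start.
Ccne1, chr7:38107535-38107740, minus strand: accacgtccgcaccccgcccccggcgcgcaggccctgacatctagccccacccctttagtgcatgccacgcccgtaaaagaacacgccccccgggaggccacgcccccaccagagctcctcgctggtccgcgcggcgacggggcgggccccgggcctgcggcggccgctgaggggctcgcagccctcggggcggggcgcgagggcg
Cdkn1b, chr6:134920151-134920400, plus strand: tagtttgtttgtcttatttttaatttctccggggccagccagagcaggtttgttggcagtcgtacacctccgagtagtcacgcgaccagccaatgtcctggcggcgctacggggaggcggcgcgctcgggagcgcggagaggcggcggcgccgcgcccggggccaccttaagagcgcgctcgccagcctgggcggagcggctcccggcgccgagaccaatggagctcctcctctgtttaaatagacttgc
Cdkn2c long, chr4:109666764-109666793, minus strand: cggggcccggccTTCCCGCtcccgcggcgc
Cdkn2c short, chr4:109665373-109665609, minus strand: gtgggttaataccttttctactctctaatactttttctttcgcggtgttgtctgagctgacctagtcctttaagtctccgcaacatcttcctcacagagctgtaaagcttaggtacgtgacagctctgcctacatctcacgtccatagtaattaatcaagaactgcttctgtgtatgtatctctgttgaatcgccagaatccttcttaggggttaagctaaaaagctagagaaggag
The windows of the Cdkn2c starts differ in base composition, with 77.2% G and C before the long and 42.8% before the short transcript. Windows of Ccne1 and Cdkn1b hold 76.0% and 64.4%.

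In the other members with several listed transcripts, mean lengths differed little. They were 1979 bases for Ccnd3 in every library, 3026 to 3030 bases for Ccne2 and 1911 to 1914 bases for Cdkn1a. The Cdkn1a lengths of the groups did not overlap either, with means of 1911.5 and 1913.3 bases, and all were near the 1913 bases of the GENCODE transcript that starts at 29093769 and far from the 922 bases of the other, which starts upstream at 29090979.

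Summed by class, D-type cyclins were at 270, 258 and 230 TPM in LFA1-lo and 605, 559 and 551 TPM in LFA1-hi libraries. E-type cyclins summed to 13.9, 15.8 and 18.1 TPM against 67.3, 66.6 and 71.2 TPM. The 2.27-fold difference of the D-type and the 4.31-fold difference of the E-type sum meant that D-type cyclin TPM per E-type cyclin TPM went from 19.4, 16.4 and 12.7 in LFA1-lo to 8.98, 8.40 and 7.74 in LFA1-hi libraries. Every LFA1-hi library had the lower ratio, and D-type transcripts remained in excess in all 6. The 3 inhibitors summed to 417 ± 21.0 and 661 ± 26.4 TPM (1.58-fold), so that cyclin TPM per inhibitor TPM went from 0.644 ± 0.0450 to 0.968 ± 0.0124 (mean ± SD, n = 3). Kinases summed to 233 ± 9.07 and 268 ± 18.3 TPM. These sums are given as values with no test, since the members were chosen with earlier results known.

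**Figure D4:**
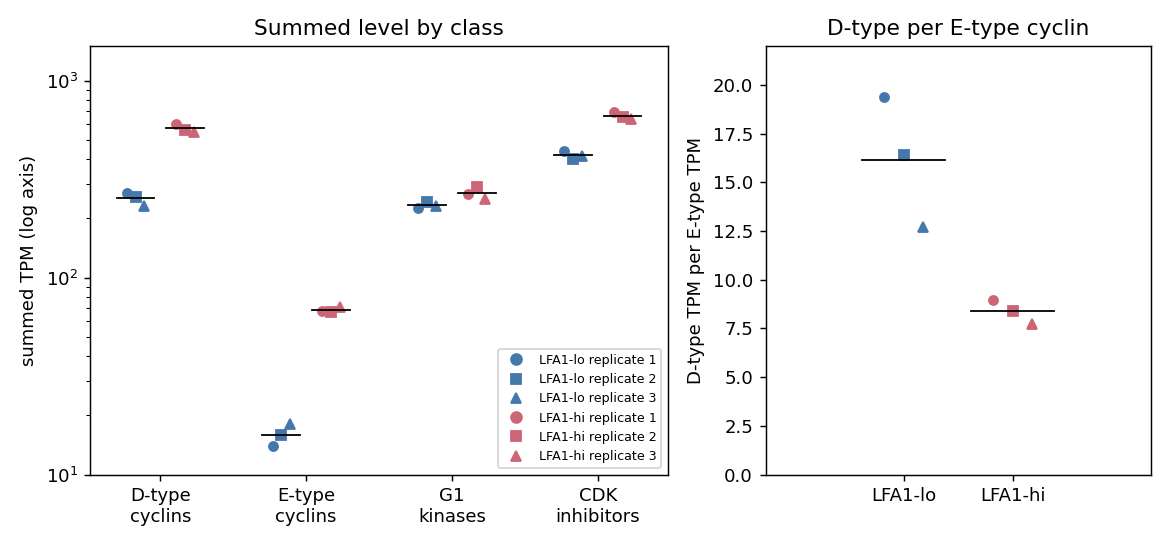
Left, summed TPM of each class per library on a log axis, with group means as lines. Right, D-type TPM per E-type TPM in each library, from 12.7 to 19.4 in LFA1-lo and from 7.74 to 8.98 in LFA1-hi.

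The order of levels changed at its lower end. In both groups Cdkn1a, Ccnd1, Cdk4, Cdk6, Cdkn2c and Ccnd3 followed each other from the highest mean TPM down. In LFA1-lo, Cdkn1b came next at 33.0 ± 9.96 TPM (SD, n = 3), and ranges of Cdkn2c, Ccnd3 and Cdkn1b overlapped from neighbour to neighbour, as did those of Ccnd2, Ccne2 and Ccne1 at 8.22, 8.16 and 7.79 TPM. In LFA1-hi, Ccne2 and Ccne1 stood above Ccnd2 with no overlap of ranges, and Cdkn1b was lowest at 16.4 ± 2.10 TPM, overlapping only Ccnd2. Cdkn1b therefore stood above both E-type cyclins in every LFA1-lo library and below both in every LFA1-hi library.

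Of 42 other genes of the G1 to S phase pathway, all tested, 21 rose and 4 fell, beside 16.1% and 15.6% of all tested genes, with a median log2 fold change of 0.40. Of 4 further CDK inhibitors 1 rose and 1 fell. Cdkn2d, the INK4 inhibitor p19, went from 21.6 ± 2.14 to 48.2 ± 8.96 TPM (n = 3 each; log2 1.17, edgeR adjusted p = 0.00081). Cdkn2b, the INK4 inhibitor p15, was at 17.5, 24.0 and 8.17 TPM in LFA1-lo and 3.24, 3.86 and 4.01 TPM in LFA1-hi libraries (log2 −2.15, SE 0.38, edgeR adjusted p = 0.00321). Among INK4 genes, p18 and p19 thus rose and p15 fell, while Cdkn2a, the gene of p16 and Arf, named after its values were seen, was between 2.5 and 6.01 TPM in all libraries and did not pass.

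Among Cdk2 and the enzymes that switch G1 kinases on or off 3 of 6 rose and none fell, beside 16.1% and 15.6% of all tested genes. Without LFA1-hi replicate 1 the count was 2, as Cdk2 no longer passed (edgeR adjusted p = 0.052), and without LFA1-lo replicate 2 it was 4. Wee1, the kinase that inhibits Cdk2 and Cdk1, rose by 0.96 on the log2 scale (SE 0.12, edgeR adjusted p = 0.000519). Of 8 genes of G1 cyclin and inhibitor turnover 2 rose and 1 fell, beside 16.1% and 15.6% of all tested genes. Cks1b, the cofactor with which the ligase SCF-Skp2 recognises p27, rose most (log2 1.62, SE 0.19, edgeR adjusted p = 0.000394). Under some alternatives, DESeq2 and limma voom among them, 3 rose. The further gene was Rbx1, with a log2 fold change of 0.34 and an edgeR adjusted p of 0.0551 in the main fit. Ambra1, a receptor of the ligase that degrades D-type cyclins, fell (log2 −0.35, SE 0.09, edgeR adjusted p = 0.0134). Leaving out LFA1-lo replicate 1 (−0.31, adjusted p = 0.0521), LFA1-hi replicate 1 (−0.34, adjusted p = 0.0605) or LFA1-hi replicate 3 (−0.32, adjusted p = 0.071) ended its call.

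Of 3 pocket proteins only Rbl1, encoding p107, passed, with 17.5 ± 1.74 TPM in LFA1-lo and 41.6 ± 0.95 TPM in LFA1-hi (n = 3 each; log2 1.27, edgeR adjusted p = 3.54e-05), while the retinoblastoma gene Rb1 stayed between 23.3 and 31.1 TPM. Of 10 E2F and DP factors 7 rose and none fell (median 0.84), with 6 to 9 rising over the alternatives. Over all tested genes 16.1% rose and 15.6% fell, the shares that stand beside each list count in this paragraph. The E2f4 call (log2 0.29, edgeR adjusted p = 0.0291) was lost with the replicate block (adjusted p = 0.0665). It was also lost without LFA1-lo replicate 1 (adjusted p = 0.0735) or any one LFA1-hi library (adjusted p = 0.0759 to 0.1). E2f7, a repressor of the family, had the largest rise (log2 1.79, SE 0.15, edgeR adjusted p = 6.1e-05). Of 6 upstream factors of D-type cyclins and Cip/Kip inhibitors 2 rose, Mdm2 most (log2 0.74), and 2 fell, Foxo1 most (log2 −0.51, SE 0.14, adjusted p = 0.0232). FoxO proteins are known activators of Cdkn1b. The Foxo1 call was lost without LFA1-lo replicate 1 (−0.45, adjusted p = 0.082), LFA1-lo replicate 3 (−0.48, adjusted p = 0.053), LFA1-hi replicate 1 (−0.41, adjusted p = 0.0992) or LFA1-hi replicate 3 (−0.52, adjusted p = 0.0737), and with limma on TPM. Foxo3, the other gene that fell, had the same log2 fold change of −0.51 (adjusted p = 0.0183) and Myc, the other that rose, had 0.51 (adjusted p = 0.0399). Neither passed when LFA1-lo replicate 1 or any one LFA1-hi library was left out (adjusted p = 0.0547 to 0.0806 for Foxo3 and 0.0821 to 0.106 for Myc). The count of falling genes was then 0 when the library left out was LFA1-lo replicate 1 or LFA1-hi replicates 1 or 3. All 5 cyclin and kinase genes of S phase to mitosis rose (median 1.49), with Ccnb1 at 21.2 ± 9.38 TPM in LFA1-lo and 69.3 ± 5.21 TPM in LFA1-hi (n = 3 each). Leaving out LFA1-lo replicate 3 kept the count at 5, and leaving out any other single library gave 4, as Ccnb2 no longer passed. Whether the 10 members moved with the share of dividing cells was not tested.

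**Figure D5:**
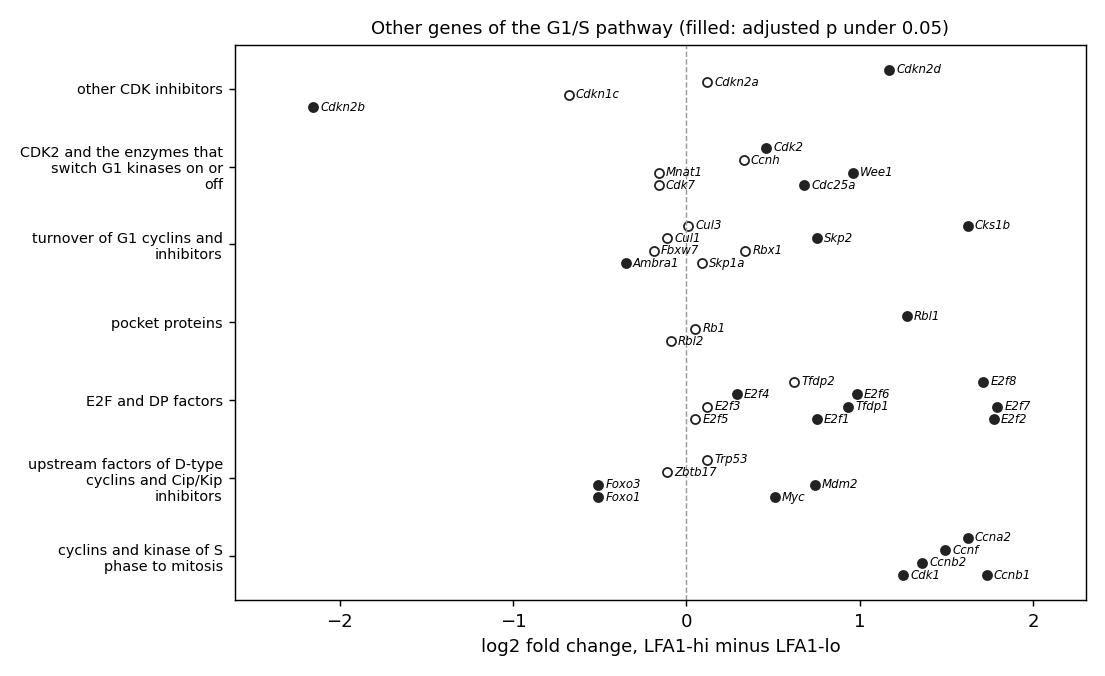
Log2 fold change (LFA1-hi minus LFA1-lo) of 42 other genes of the pathway by list, filled where the adjusted p was under 0.05. Filled points lie mostly right of 0, with Cdkn2b at −2.15 farthest left.

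Across the 6 libraries and 8315 genes with a mean CPM of at least 10, the gene most like each member in log2 CPM was sought. It was Tipin, a protein of the replication fork, for Ccne1 (Pearson r = 0.9997) and Rpa2, a subunit of the single-strand DNA binding complex, for Ccne2 (0.9995). Knstrn, a spindle protein, was most like Cdkn2c (0.9993), Slmo2 most like Ccnd1 (0.9983), Dlat most like Ccnd2 (0.9981) and Dmpk most like Ccnd3 (0.9977). For Cdk4 it was Haus3 (0.998), for Cdkn1a Cmtm7 (0.9978), for Cdkn1b Tifa (0.9969) and for Cdk6 Rnf181 (0.9942). All points share the split into 2 groups of 3 libraries, and for Ccne2 alone 615 genes reached 0.95, while for Cdk6 15 did, so these are descriptions.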

How the data were processed

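The authors deposited gene-level RSEM output per library. Per the file headers it gives expected counts (estimated reads or fragments per gene, not normalized) and, also deposited, TPM and transcript lengths. Tools listed in the submitters' processing notes are Trim Galore, bcl2fastq and RSEM, with build GRCm38; the sources used here do not give the aligner, annotation or strand use. Expected counts were rounded, filtered (filterByExpr), scaled by TMM (factors 0.956 to 1.034) and tested by the robust quasi-likelihood method of edgeR 4.0.16 (R 4.3.3), with Benjamini-Hochberg adjustment over 11692 genes and a threshold of 0.05. The fit held all 6 libraries (biological coefficient of variation 15%). SE and intervals are from that fit, means and SDs from TPM. Alternatives used DESeq2 1.42.0 and limma 3.58.1; tables used Python 3.11.15. Members and lists were chosen with earlier results of these data known. Named genes were the members, the largest called rise and fall of each list and the gene most like each member; other genes were chosen after their values were seen. Coordinates come from RefSeq (GRCm38.p6) and GENCODE M21, the latter also GRCm38. Counts limit precision for Ccne1, with 100 reads in its lowest library.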

Additional observations from a re-analysis of the deposited data

How the results depend on the processing

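Of the 10 genes 7 rose and 1 fell in the main analysis, and 7 or 8 rose and 1 fell under every alternative run. Those were DESeq2 size factors or library totals as scaling, unrounded counts, a minimum of 10 CPM in 3 libraries, no filter, a fit that is not robust, DESeq2, limma voom, limma-trend on TPM with pseudocounts of 0.1 or 1, a threshold of 0.01, a replicate block and leaving out each library. No member changed direction. Ccnd3 was the gene that gained a call: it passed in DESeq2, with limma voom (adjusted p = 0.0496), with the fit that is not robust (0.0491), with the replicate block (0.0345) and without LFA1-lo replicates 2 or 3. Same-numbered libraries did not deviate together (correlations of 0.04, 0.02 and −0.07). The labels do not say whether such libraries share a mouse or a sort, and low correlations cannot exclude it, so pairing remains unknown. With the replicate block 8 members rose, and over all genes 3253 passed against 3705 without it. Leaving out a library gave 2288 to 5032 genes over all and 1 to 4 falling genes of the other pathway lists (1 when LFA1-lo replicate 1 was absent, and likewise for LFA1-hi replicates 1 and 3), where 4 fell with all libraries. Rising genes of those lists, 21 with all libraries, ran from 17 to 24 in the same fits. A threshold of 0.01 gave 2024 genes over all and 1 falling pathway gene. The log2 ratio of Ccnd1 to Ccnd2 (0.03) turned to −0.07 and −0.05 when 1 library was left out, and ran up to 0.12 in the other such fits. Summed as CPM without division by length, D-type cyclins differed by 1.31 rather than 1.18 and inhibitors by 0.74 rather than 0.66 on the log2 scale; scaling and weighting by length changed together, and the cause was not tested.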
